A study of Mus musculus with 4 samples.

Results

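The let-7 miRNA genes are 9 genes of the mouse genome: Mirlet7a-1, Mirlet7a-2, Mirlet7b, Mirlet7c-1, Mirlet7c-2, Mirlet7d, Mirlet7f-2, Mirlet7g and Mirlet7i. Their data are the deposited regions that overlap one of these genes (GENCODE vM21, mm10) by at least 1 base on the same strand. They make up 21 of the 46860 regions scored in the wild-type library, 23 of the 86106 in the knockout-labelled library and 21 of the 46862 in the table that sets both libraries against each other. The 9 genes are among 365 miRNA genes with a region in any of the 3 tables, of 2202 annotated. That each gene has a region follows from how the genes were chosen and is no result. Mirlet7e, Mirlet7f-1, Mirlet7j and Mirlet7k were not analysed here.

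RNA bound to AGO2 was recovered by eCLIP, in which crosslinked RNA is immunoprecipitated (IP) and sequenced beside a size-matched input, from the whole brains of newborn (P0) mice of the C57BL/6 background. The groups are wild type and Fmr1 knockout, with 1 IP and 1 input each, and the deposited files belong to the 2 IPs. The labels do not give the Fmr1 allele, the number of animals or whether brains were pooled. Any difference between the IPs therefore compares 2 libraries, not genotypes, and has no replicate behind it.

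miRNAs of the let-7 family are cut from hairpins by Drosha and Dicer, and the arm that is kept guides an Argonaute protein to messenger RNAs that pair with its seed, the bases near its 5′ end. In the developing brain let-7 rises as neural progenitors give way to neurons, and the RNA-binding proteins Lin28a and Lin28b hold its maturation back in early cells. Its described targets include regulators of growth and of the cell cycle.

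The mature let-7 sequences are shown because reads on these arms carry the results below. All are the 5p arms of RefSeq (GRCm38.p6, the same assembly as mm10), 5′ to 3′, with the seed, bases 2 to 8, in capitals.
let-7a: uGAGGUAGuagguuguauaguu
let-7b: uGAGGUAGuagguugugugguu
let-7c: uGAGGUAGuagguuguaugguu
let-7d: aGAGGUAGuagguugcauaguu
let-7f: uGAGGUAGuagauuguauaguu
let-7g: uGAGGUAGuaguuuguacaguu
let-7i: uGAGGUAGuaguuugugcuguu
The 9 genes give 7 distinct mature sequences with 1 shared seed. Counted from the 5′ end of the mature miRNA, with the base of let-7a named before the position, let-7c differs from let-7a by A19G alone and let-7f by G12A alone. The other changes are A17G and A19G in let-7b, U1A and U16C in let-7d, and G12U and U18C in let-7g. The most distant, let-7i, carries G12U, A17G, U18C and A19U.

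These small differences bear on which gene a read can be given to. An exact search of the genome on both strands placed mature let-7a in 2 genes, Mirlet7a-1 and Mirlet7a-2, and mature let-7c in 2, Mirlet7c-1 and Mirlet7c-2. Mature let-7f also matched 2 places, Mirlet7f-2 and a copy not analysed here, whereas let-7b, let-7d, let-7g and let-7i each matched 1. The deposited regions mostly run past the mature arm, and the sequence of each of the 22 covered stretches searched occurred at 1 place. How reads that match several copies were assigned is not given in the sources used here, so the split of let-7a reads and of let-7c reads between their copies is uncertain, as is the level of Mirlet7f-2.

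The genes lie at 7 places on 6 chromosomes and differ in what surrounds them (GENCODE vM21, mm10). Mirlet7b (ENSMUSG00000065564.1, chromosome 15, 85707319 to 85707403, plus strand) and Mirlet7c-2 (ENSMUSG00000065608.1, chromosome 15, 85706603 to 85706697, plus) both lie in an exon of the non-coding gene Lncppara. Mirlet7a-1 (ENSMUSG00000065421.3, chromosome 13, 48538179 to 48538272, minus) and Mirlet7d (ENSMUSG00000065453.1, chromosome 13, 48536012 to 48536114, minus) both lie in an exon of the lincRNA 6720427I07Rik. Mirlet7c-1 (ENSMUSG00000065557.3, chromosome 16, 77599657 to 77599750, plus) is intronic in Mir99ahg, the host of Mir99a and Mir125b-2. Mirlet7a-2 (ENSMUSG00000092770.1, chromosome 9, 41536716 to 41536811, plus) is intronic in the non-coding genes 3110039I08Rik and Gm49317. Both remaining intronic genes sit in protein-coding hosts, Mirlet7g (ENSMUSG00000065440.1, chromosome 9, 106178840 to 106178927, plus) in Wdr82 and Mirlet7f-2 (ENSMUSG00000065602.1, chromosome X, 151912346 to 151912428, plus) in Huwe1. Mirlet7i (ENSMUSG00000065406.3, chromosome 10, 122985640 to 122985724, minus) lies in an exon of the transcribed pseudogene D630033A02Rik.

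Reads were recovered from the deposited scores. For Mirlet7b, Mirlet7i and wild-type Mirlet7c-1 the -log10 p is at its ceiling of 400 and does not fix the reads. Their wild-type counts are the smallest that fit the scores over input and between the IPs. The depth ratios that the scores give were 6.34 for input over IP in wild type, 1.92 in the knockout-labelled pair and 2.28 for the knockout-labelled over the wild-type IP. Exonic regions of Fmr1, 2 wild-type and 5 knockout-labelled, held 2 to 11 IP reads each, and none was enriched over input. With the allele not given, these reads check neither genotype nor label, and the library is called knockout-labelled. Of the markers listed for neurons, 8 of 8 had an exonic region in both libraries, and 7 of 7 for neural progenitors. For erythroid cells 3 of 5 had one in wild type, against 4 of 5 in the other library, for endothelium 1 and 3 of 3, for muscle 1 of 5 in both and for liver 1 and 0 of 3. The liver genes Apoa1 and Mir122 and the muscle genes Ckm, Myh1, Mir1a-1 and Mir1a-2 had no exonic region in either. The muscle gene Mir206 had regions in both and was enriched over input in the knockout-labelled library (9 reads, log2 4.11, -log10 p 3.35), but not in wild type (4 reads). The liver gene Alb had 1 wild-type region with 6 reads, not enriched. The blood miRNA gene Mir451a held 686 wild-type and 464 knockout-labelled reads and the endothelial Mir126a 855 and 805, so miRNAs typical of blood and vessel cells were in both IPs, and their part in the let-7 values was not tested.

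All 9 let-7 genes had reads on the mature 5p arm, and Mirlet7b, Mirlet7i and Mirlet7c-1 held most of them. Each gene's level below is the number of IP reads in the region with most bases of the 5p arm, with an exact 95% Poisson interval that covers counting error only. Mirlet7b, the most read in wild type, held 1030 reads (968 to 1095) there and 720 (668 to 775) in the knockout-labelled IP. Mirlet7i held 946 (887 to 1008) and 789 (735 to 846). Both lay above Mirlet7c-1, with 748 (695 to 804) and 554 (509 to 602). In wild type Mirlet7b and Mirlet7i had overlapping intervals, and in each IP these 3 genes stood apart from the other 6.

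The middle of the range was Mirlet7a-2, with 334 wild-type reads (299 to 372) and 288 knockout-labelled reads (256 to 323). Mirlet7d held 199 (172 to 229) and 143 (121 to 168), and Mirlet7g 199 (172 to 229) and 166 (142 to 193). Mirlet7d and Mirlet7g could not be ordered within their intervals in either IP.

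The last 3 genes held under 30 reads in each IP. Mirlet7c-2 had 24 (15.4 to 35.7) and 27 (17.8 to 39.3), and Mirlet7a-1 had 18 (10.7 to 28.4) and 16 (9.15 to 26.0). Mirlet7f-2 had 18 (10.7 to 28.4) in wild type and 3 (0.62 to 8.77) in the knockout-labelled IP. Within wild type these 3 did not differ beyond their intervals; in the knockout-labelled IP Mirlet7f-2 lay below the other two. From the highest to the lowest gene the reads spanned 57.2-fold in wild type, against 263-fold in the knockout-labelled IP, the latter resting on the 3 reads of Mirlet7f-2.

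**Figure D1:**
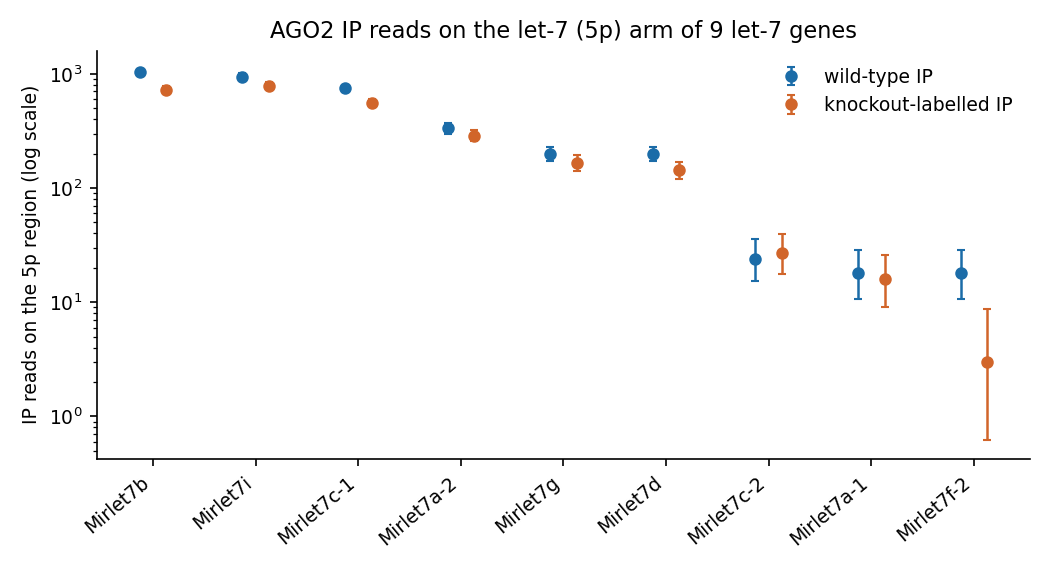
AGO2 IP reads on the 5p region of each let-7 gene (log axis), for the wild-type and the knockout-labelled IP; points are read counts of 1 library and bars exact 95% Poisson intervals. In both IPs 6 genes sit at or above 100 reads and 3 genes below 30, with Mirlet7f-2 at 18 and 3.

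Genes of the same host transcript, or with the same mature sequence, were far apart in reads. In Lncppara, Mirlet7b held 1030 wild-type reads and Mirlet7c-2 held 24. In 6720427I07Rik, Mirlet7d held 199 and Mirlet7a-1 held 18. Of the copies that encode let-7a, Mirlet7a-2 held 334 and Mirlet7a-1 held 18, and of those that encode let-7c, Mirlet7c-1 held 748 and Mirlet7c-2 held 24. The knockout-labelled IP had the same order within each of these pairs, 720 against 27, 143 against 16, 288 against 16 and 554 against 27. Each pair includes Mirlet7a-1 or Mirlet7c-2, whose mature sequence also occurs in another gene, so the values show where the deposited reads were placed, not which gene they came from.

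Among all miRNA genes, the let-7 genes held a similar share of reads in both IPs. Counting each miRNA gene by its best-covered region, let-7 held 3517 of 42804 reads in wild type, 8.22% (exact binomial interval 7.96 to 8.48), over 312 miRNA genes. In the knockout-labelled IP it held 2718 of 34370, 7.91% (7.62 to 8.20), over 339 genes. These intervals overlap. The best-covered region of Mirlet7d was on the 5p arm in wild type (199 reads) and on the 3p arm in the knockout-labelled IP (154 reads, against 143 on the 5p arm). By reads Mirlet7b ranked 5, Mirlet7i 6 and Mirlet7c-1 13 of 312 in wild type; Mirlet7i ranked 6, Mirlet7b 11 and Mirlet7c-1 15 of 339 in the knockout-labelled IP. Mirlet7f-2 ranked 217 and 324.

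Within let-7, Mirlet7b made up 29.3% of the let-7 reads of the wild-type IP (27.8 to 30.8) and 26.5% of those of the other IP (24.8 to 28.2). Mirlet7i made up 26.9% (25.4 to 28.4) and 29.0% (27.3 to 30.8). The leading gene thus changed place between the IPs, and for each of the 2 genes the intervals of the IPs overlap. Overlap of separate intervals does not show that the shares are equal. Mirlet7c-1 made up 21.3% and 20.4%, Mirlet7a-2 9.50% and 10.6%, and Mirlet7g 5.66% and 6.11%. Mirlet7d made up 5.66% and 5.67%, but by its 5p arm in wild type and its 3p arm in the other IP, which are different mature miRNAs. The share of Mirlet7f-2 was 0.51% (0.30 to 0.81) and 0.11% (0.02 to 0.32).

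Against the input, most let-7 arms were among the strongly enriched RNAs in both libraries. The authors scored each region by a -log10 p and a log2 of IP over input, scaled to depth, and a region counts as enriched here at 3 or more on both. In wild type 9 of 9 let-7 genes were enriched, against 89.1% of the 312 miRNA genes with a region and 24.1% of all regions. In the knockout-labelled library 8 of 9 were enriched, all but Mirlet7f-2, against 68.7% of 339 miRNA genes and 3.08% of all regions. A count of 9 or 8 of 9 is close to the share of miRNA genes in wild type and above it in the knockout-labelled library, and nothing particular to let-7 is read from either.

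The inputs held almost no reads on the let-7 arms, so the size of the enrichment is set by the IP reads and the depth ratio. The input had 0 reads on the 5p region of 8 of 9 genes in each library, with 2 reads on Mirlet7c-1 in wild type and 1 on Mirlet7a-2 in the knockout-labelled pair as the exceptions. The authors' score adds 1 to the input reads. A count of 0 allows up to 3 reads. Each "at least" below is the log2 with a denominator of 3, with no 1 added to it and the IP reads held as counted. Adding the authors' 1 on top of 3 input reads would lower each of these values. They also leave out the counting error of the IP reads. With both counts in error, the lower end of the exact 95% interval was 10.79 for Mirlet7b and 10.66 for Mirlet7i in wild type.

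The authors' log2 over input of Mirlet7b was 12.67 in wild type (at least 11.09 with a denominator of 3), against 10.43 in the knockout-labelled library (at least 8.85). For Mirlet7i it was 12.55 (at least 10.96) and 10.56 (at least 8.98), and for Mirlet7c-1 10.63 and 10.05 (at least 8.47 in the second library). These 3 were the let-7 genes with the most IP reads. Mirlet7b was deposited as 2 abutting wild-type regions, and 1 input read on the other, which held 1029 IP reads, gave it a log2 of 11.67.

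Mirlet7a-2 had a log2 over input of 11.05 (at least 9.46) in wild type, and of 8.11 in the other library. Mirlet7d had 10.30 (at least 8.72) and 8.10 (at least 6.51), and Mirlet7g 10.30 (at least 8.72) and 8.31 (at least 6.73). All bounds given for these 3 genes exceed the limit of 3.

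At the low end, Mirlet7c-2 had 7.25 (at least 5.66) and 5.69 (at least 4.11), and Mirlet7a-1 had 6.83 (at least 5.25) and 4.94 (at least 3.35). The exact 95% interval of Mirlet7a-1 in the knockout-labelled library begins at 2.89, under the limit of 3, so its call there rests on the value itself. Mirlet7f-2 had 6.83 (at least 5.25) in wild type, but 2.52 in the other library, with a -log10 p of 0.92 from 3 IP reads against 0. At that depth enrichment of Mirlet7f-2 was not detectable, which does not show that it was absent.

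The median log2 over input of the 9 let-7 genes was 10.30 in wild type, against 8.11 in the knockout-labelled library. By the region with the highest -log10 p, the measure available for every miRNA gene, it was 10.30 and 8.21. The value of 8.21 is that of the 3p arm of Mirlet7d, which has another seed, and by the 5p regions alone the median of that library stays 8.11. The 303 other miRNA genes had a median of 8.09 in wild type (quartiles 6.12 and 9.39) and the 330 others 5.72 in the knockout-labelled library (3.26 and 7.27), and all regions 4.25 and 2.26. The let-7 median therefore lay above the upper quartile of other miRNA genes in both libraries. Mirlet7c-2, Mirlet7a-1 and Mirlet7f-2, however, lay below the median of the other miRNA genes in both. Gene by gene, the log2 over input was higher in wild type by 0.57 for Mirlet7c-1 to 4.31 for Mirlet7f-2. With 0 input reads this difference moves with the depth of the inputs, and the smallest one belongs to the gene with 2 wild-type input reads.

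**Figure D2:**
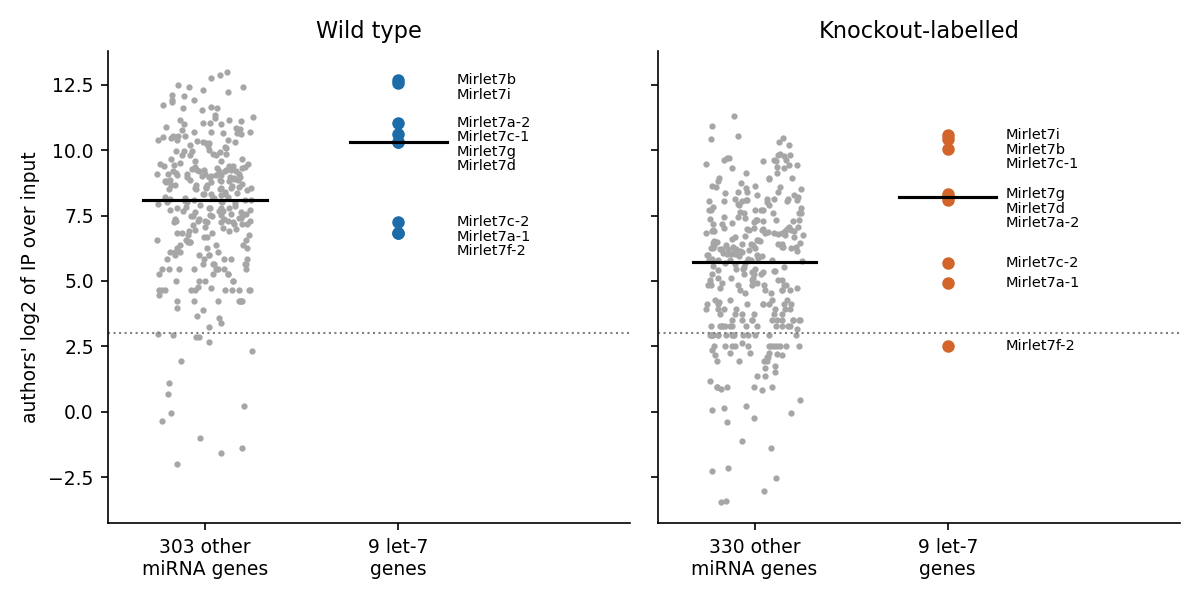
Authors' log2 of IP over input, by the region with the highest -log10 p of each miRNA gene, in the wild-type (left) and knockout-labelled (right) library; grey points are other miRNA genes, coloured points let-7 genes, solid bars medians and the dotted line the limit of 3, with names shifted down where they would overlap. The let-7 medians of 10.30 and 8.21 lie above those of the other miRNA genes, 8.09 and 5.72 (the 8.21 is the 3p arm of Mirlet7d), and Mirlet7f-2 in the knockout-labelled library is the let-7 point under the limit.

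Set directly against each other, the IPs differed on let-7 by about as much as on miRNA genes in general. The authors' deposited table gives the log2 of wild-type over knockout-labelled IP, scaled to depth, and a gene counts as higher in wild type here when its -log10 p reaches 3 and its log2 reaches 1. By these limits the authors' deposited table had 7 of 9 let-7 genes higher in wild type, all but Mirlet7a-1 and Mirlet7c-2, against 64.1% of 312 miRNA genes and 3.39% of all regions. Its 46862 regions are nearly the 46860 of the wild-type library, and on let-7 genes they are the same. Regions found only in the knockout-labelled IP are thus mostly missing from it. Counts of genes higher in wild type, and the medians below, are tilted toward wild type by this choice of regions. With limits of 5 and 2 the count was 1, Mirlet7f-2. The scaling to depth alone adds 1.19 to each log2, so a well-covered gene with equal reads in both IPs also exceeds the log2 limit of 1. Before scaling, 8 of 9 genes had more reads in the wild-type IP, with Mirlet7c-2 as the exception. This comparison uses the same IP reads as the scores over input and is not independent of them. Whether a difference lies in the number of cells of a type, in the RNA per cell or between the libraries themselves cannot be told apart with 1 whole-brain IP each.

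For Mirlet7b, with 1030 wild-type and 720 knockout-labelled reads, the authors' deposited table gave a log2 of 1.70 (interval of the read ratio 1.57 to 1.84). For Mirlet7c-1, with 748 and 554 reads, the authors' deposited table gave 1.62 (1.46 to 1.78), and for Mirlet7i, with 946 and 789, 1.45 (1.31 to 1.59). The 3 most-read genes thus lay within a narrow range, with Mirlet7b and Mirlet7i overlapping at the edges of their intervals. The authors' deposited table lists their -log10 p at 400, a ceiling, and the highest value under it anywhere in that table was 88.2.

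The authors' deposited table gave 1.65 for Mirlet7d (199 and 143 reads, 1.35 to 1.99), with a -log10 p of 27.5. It was 1.44 for Mirlet7g in the authors' deposited table (199 and 166 reads, 1.15 to 1.76), with a -log10 p of 22.2. For Mirlet7a-2 the authors' deposited table gave 1.40 (334 and 288 reads, 1.17 to 1.63), with a -log10 p of 35.1. The intervals of these genes overlap each other and that of Mirlet7c-1.

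Both genes that did not pass had few reads. In the authors' deposited table Mirlet7a-1 had a log2 of 1.27 (18 and 16 reads, 0.30 to 2.43) with a -log10 p of 1.91, and Mirlet7c-2 had 0.97 (24 and 27 reads, 0.16 to 1.87) with a -log10 p of 1.67. Mirlet7f-2 stood highest in the authors' deposited table at 3.36 (18 and 3 reads, 2.00 to 6.18), with a -log10 p of 6.01. Its interval overlapped that of Mirlet7a-1 alone among the let-7 genes. On 18 and 3 reads, it is the least firmly measured of the 7 that passed.

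Summed over the 9 genes, the 5p regions held 3516 wild-type and 2706 knockout-labelled reads, a scaled log2 of 1.57 (1.49 to 1.64). Of this value, 1.19 is the scaling to depth. The median of the 9 log2 values in the authors' deposited table was 1.45. In the authors' deposited table the 303 other miRNA genes had a median of 1.55 (quartiles 1.21 and 2.03), and all regions had 2.77. The 3062 regions outside miRNA genes with 20 or more reads over both IPs had a median of 0.31 in the authors' deposited table. The let-7 median thus lay near that of other miRNA genes, above that of well-covered regions elsewhere, and below the median of all regions, the value that 3 wild-type reads against 0 give. Mirlet7f-2, at 3.36 in the authors' deposited table, lay above the median of all regions. Minus the median of all miRNA genes the let-7 median was -0.10, and minus that of all regions -1.33, so the direction of the let-7 difference depends on what it is set against.

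**Figure D3:**
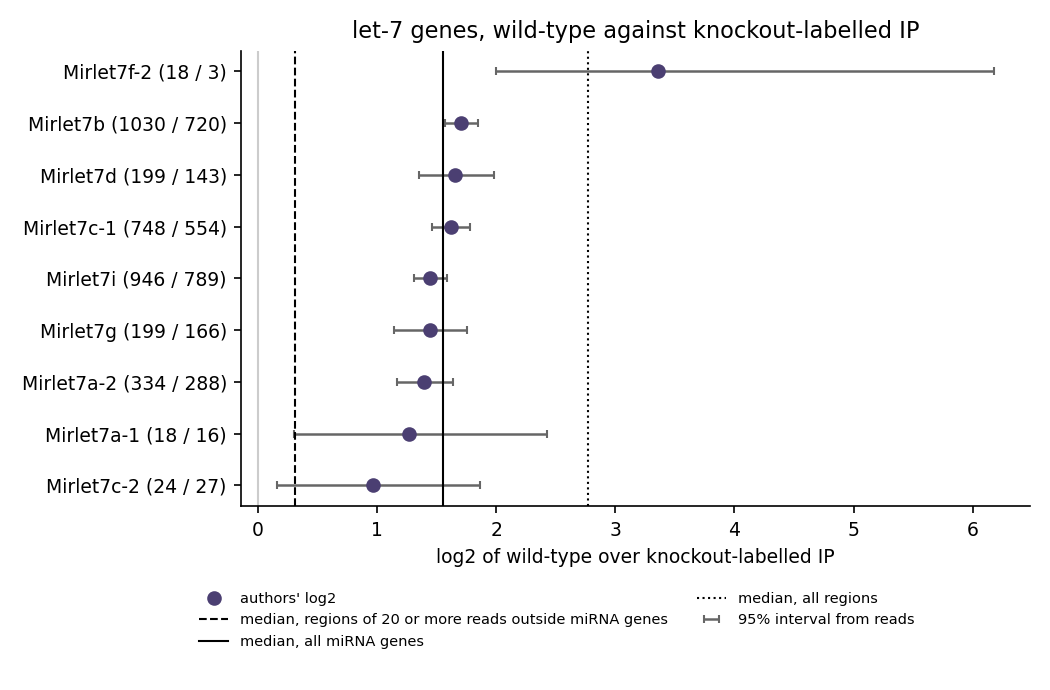
Authors' log2 of wild-type over knockout-labelled IP (points) for each let-7 gene, with the reads of both IPs in parentheses and exact 95% intervals of the read ratio (bars); vertical lines are medians over regions of 20 or more reads outside miRNA genes (0.31), all miRNA genes and all regions (2.77). Mirlet7f-2 is at 3.36 with an interval of 2.00 to 6.18, and the other 8 genes lie between 0.97 and 1.70.

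On the hairpin, the deposited AGO2 regions of most let-7 genes lay on the 5p arm, and the loop had no region of its own. Reads outside the deposited regions are not known, so a stretch without a region is not shown to be free of reads. The hairpins of Mirlet7b, with regions on a single arm, and Mirlet7d, with regions on both, are examples. Capitals mark the bases covered by wild-type regions (RefSeq, GRCm38.p6, coordinates above).
Mirlet7b: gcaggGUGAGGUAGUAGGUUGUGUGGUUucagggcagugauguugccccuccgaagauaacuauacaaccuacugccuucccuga
Mirlet7d: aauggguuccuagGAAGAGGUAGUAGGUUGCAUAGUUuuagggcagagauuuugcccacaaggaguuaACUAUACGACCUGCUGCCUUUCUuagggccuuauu
Of the wild-type let-7 regions, 17 of 21 lay on the 5p arm (81.0%, exact binomial interval 58.1 to 94.6) and 4 on the 3p arm. In the knockout-labelled library 17 of 23 lay on the 5p arm (73.9%, 51.6 to 89.8) and 6 on the 3p arm. Abutting regions of one gene share reads, so these shares describe the deposited regions and are not shares of molecules. The intervals treat such pieces as independent, which they are not, and so do not measure a sampling spread. Regions on the 3p arm belonged to Mirlet7d and Mirlet7f-2 in both libraries and to Mirlet7g in the knockout-labelled library as well.

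The covered stretches began close to the start of the mature arm, and in some genes ran further past its end. In wild type the stretch on the 5p arm began 1 base before the mature miRNA in 5 genes, 2 bases before it in 3 genes (Mirlet7c-1, Mirlet7d and Mirlet7g) and 4 bases before it in Mirlet7f-2. In the knockout-labelled library it began 1 base before in 6 genes and 2 before in 3 (Mirlet7c-1, Mirlet7f-2 and Mirlet7g). At the 3′ edge the wild-type stretch ran past the arm by 6 bases on Mirlet7c-1, 4 on Mirlet7f-2 and 3 on Mirlet7a-1. The knockout-labelled stretch ran 4 past it on Mirlet7c-1. All other stretches on the 5p arm ended within 1 base of its end. The stretches were 22 to 30 bases long in wild type, against 22 to 28 in the knockout-labelled library, and the longest in each was on Mirlet7c-1, shared in wild type with Mirlet7f-2. Within 1000 bases of the let-7 genes, outside miRNA genes, the same strand held no wild-type region and 1 knockout-labelled region, near Mirlet7f-2, which was not enriched.

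**Figure D4:**
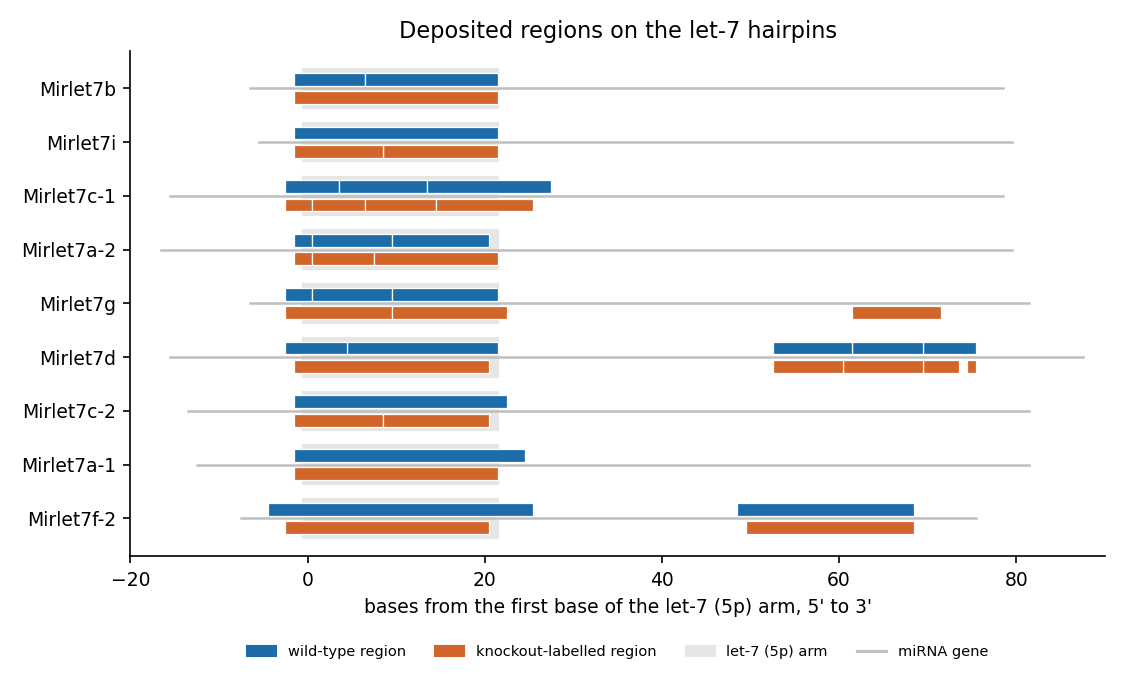
Deposited regions on the 9 let-7 hairpins, aligned at the first base of the let-7 (5p) arm, in bases 5′ to 3′; blue bars are wild-type regions, orange bars knockout-labelled regions, grey boxes the mature 5p arm and grey lines the annotated genes. All 9 genes have regions over the 5p arm, whereas regions on the 3p arm appear for Mirlet7d and Mirlet7f-2 in both libraries and for Mirlet7g in the knockout-labelled library.

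Mirlet7d was the let-7 gene with substantial reads on both arms. Its 3p arm is shown because its seed differs from that of the 5p arms.
let-7d-3p: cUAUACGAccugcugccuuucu
In wild type the 5p region of Mirlet7d held 199 reads and the 3p regions 136, a ratio of 3p to 5p of 0.68 (exact interval 0.55 to 0.85). In the knockout-labelled IP they held 143 and 154, a ratio of 1.08 (0.85 to 1.36). The 3p arm thus made up 40.6% of these reads (35.3 to 46.1) in wild type and 51.9% (46.0 to 57.7) in the knockout-labelled IP. The intervals of the shares overlap at their edges, which does not show that the shares are equal. With 1 library each the difference has no replicate check. In the authors' deposited table the log2 of wild-type over knockout-labelled IP was 1.65 on the 5p arm of Mirlet7d and 0.999 on its 3p arm, the latter with a -log10 p of 8.58 and a log2 just under the limit of 1.

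The other 3p regions were thin. On Mirlet7f-2 the 3p arm held 4 wild-type reads (log2 over input 4.66, -log10 p 2.81) and 3 knockout-labelled reads (1.52), so neither was enriched. On Mirlet7g it held 7 knockout-labelled reads (3.75, -log10 p 2.51), below the limit for the -log10 p.

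The miRNA genes transcribed beside let-7 did not share 1 value between the IPs. Beside Mirlet7c-1, at 1.62, the authors' deposited table gave Mir99a a log2 of 1.05 (1198 and 1313 reads, 0.94 to 1.17) and Mir125b-2 2.25 (146 and 69 reads, 1.85 to 2.70). The 3 genes of this host thus had intervals that do not overlap. Beside Mirlet7a-2, at 1.40, the authors' deposited table gave Mir100 1.59 (202 and 153 reads, 1.28 to 1.90) and Mir125b-1 2.63 (298 and 109 reads, 2.32 to 2.97). Here Mir100 overlapped with Mirlet7a-2, and Mir125b-1 lay above both.

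Mir98, another member of the let-7 family, lies beside Mirlet7f-2. It held 11 wild-type reads (log2 over input 6.12) and 9 knockout-labelled reads (4.11), and was enriched in both libraries, with an exact interval that begins at 1.92 in the latter. In the authors' deposited table Mir98 had 1.33 (0.07 to 2.93) with a -log10 p of 1.28, and did not pass. Its interval overlaps that of Mirlet7f-2. Mir99b and Mir125a, the pair of the same families on another chromosome, had 1.19 (196 and 195 reads) and 1.56 (2617 and 2019 reads, 1.48 to 1.65) in the authors' deposited table.

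The miRNA genes outside the family whose 3 values lay closest to the let-7 medians, by Euclidean distance over the log2 over input of each library and the log2 between IPs, were found among 286 genes. Mir100 was closest (distance 0.15, with values of 10.32, 8.20 and 1.59), followed by Mir23a (0.20), Mir23b (0.25), Mir539 (0.27) and Mir181d (0.34). The let-7 medians in this measure were 10.30, 8.21 (the 3p arm of Mirlet7d) and 1.45. For contrast, the neuronal Mir124a-2, with 511 and 143 reads, had 3.02 in the authors' deposited table and Mir124a-1, with 571 and 216, 2.58.

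On messenger RNAs, several described let-7 targets held an enriched region with a let-7 seed match. The list has 28 targets. In wild type 23 had an exonic region and 11 an enriched one, which is near the 50.8% of 6797 protein-coding genes with an exonic region. In the knockout-labelled library 24 had an exonic region and 7 an enriched one, against 14.1% of 8595. An enriched region with a let-7 seed match was found in 7 targets in wild type (Lin28b, Mycn, Dicer1, Nr6a1, Plagl2, Nras and Tgfbr1), against 5.30% of genes. In the knockout-labelled library it was found in 3 (Lin28b, Dicer1 and Tgfbr1), against 1.90% of genes. The genes were listed because they are described as targets of let-7, so these counts are not independent of the match.

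A match was CTACCTC, which pairs with bases 2 to 8 of let-7, or TACCTCA, which pairs with bases 2 to 7 followed by A; a site CTACCTCA holds both. On the transcript strand 5.58% of 6954 enriched exonic regions of protein-coding genes held one in wild type, as did 10.4% of 1768 in the knockout-labelled library. Of all exonic regions 2.89% and 2.28% held one, and on the other strand of the enriched regions 0.20% and 0.34% did. With the 8-base match alone, the targets numbered 2 in wild type, Dicer1 and Plagl2, and 1, Dicer1, in the other library. Regions differ in length and composition between these sets, and a match is a description of the letters, not of binding by let-7.

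Sites in enriched regions of Dicer1, Nras, Lin28b and Tgfbr1 are shown as examples of where the seed match lay, 5′ to 3′ on the transcript strand (mm10), with the match in capitals.
Dicer1: gtacaaccaaCTACCTCAtatcccattcag
Nras: ttcagaataaCTACCTCctcactcggctgt
Lin28b: cagcacatggCTACCTCccagctaccacag
Tgfbr1: aaggtacattTACCTCAttgtgtatataat
The Dicer1 site, in the coding sequence of the enzyme that cuts pre-miRNA hairpins, lay in the region chr12:104702787-104702853 on the minus strand. It held 16 wild-type IP reads against 1 input read (log2 5.66), and the matching knockout-labelled region 25 against 1 (4.58). The Nras site, in the 3′ UTR of a growth-signalling GTPase (chr3:103064362-103064404, plus), held 19 wild-type reads against 0 (6.91). The knockout-labelled region over the same Nras site held 11 against 2 (2.81, -log10 p 3.04), under the log2 limit. Dicer1 was thus enriched at this site in both libraries and Nras at its site in wild type.

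The Lin28b site, in the 3′ UTR of the protein that blocks let-7 maturation (chr10:45378439-45378512, minus), held 10 wild-type reads against 0 (log2 5.99). The knockout-labelled region over it held 11 against 0 (4.40). The Tgfbr1 site, in the 3′ UTR of a receptor of TGF-beta (chr4:47414432-47414544, plus), held 12 wild-type reads against 1 (5.25) and 10 knockout-labelled reads against 0 (4.26). Both genes were enriched at these sites in both libraries.

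Other targets with a high -log10 p had a best region that held no seed match. In wild type these were Lin28b, in another stretch of its 3′ UTR (14 reads against 0, log2 6.47), the transcription factor gene Myc (13 against 0, 6.36) and E2f5, a transcription factor of the E2F family (11 against 1, 5.12). In the knockout-labelled library they were Lin28b (21 against 0, 5.33), Nras (19 against 1, 4.19), the zinc-finger gene Plagl2 (14 against 1, 3.75) and the growth factor receptor gene Igf1r (12 against 1, 3.52). The wild-type Lin28b region (chr10:45380086-45380089) is too short to hold a match. The knockout-labelled one (chr10:45380086-45380092) is barely long enough, so for Lin28b the lack of a match is no result. Hmga2, Lin28a and Col3a1 had no exonic region in either library. Between the IPs the authors' deposited table had 2 of 23 targets higher in wild type, against 8.47% of 6797 genes: E2f5 at 3.65 (11 and 1 reads) and Nras at 1.85 (19 and 11 reads). The share of targets that passed was near that of all genes.

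Among 20 genes that make, block or work with let-7, 16 had an exonic region in wild type and 9 an enriched one, near the 50.8% of protein-coding genes with an exonic region. Of the same 20 genes, 17 had an exonic region in the knockout-labelled library and 6 an enriched one, beside 14.1% of such genes. The Tnrc6 genes, which encode scaffolds that join Argonaute to the machinery of silencing, had the most reads. Tnrc6a held 185 reads against 3 in wild type (log2 8.20) and 168 against 9 in the other library (5.01). Tnrc6b held 36 against 0 (7.83) and 65 against 0 (6.96), and Tnrc6c 60 against 1 (7.57) and 77 against 6 (4.40). The best regions of all 3 held no let-7 seed match in either library.

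Of these 16 genes, 5 were higher in wild type in the authors' deposited table, against the 8.47% of protein-coding genes given above. For Tnrc6a the authors' deposited table gave 1.32 (185 and 168 reads) and for Tnrc6c 1.34 (60 and 53 reads). Khsrp, whose protein binds the let-7 loop, had 4.77 (12 and 0 reads) in the authors' deposited table, and the Argonaute genes Ago1 and Ago2 had 4.51 (10 and 0) and 4.36 (9 and 0). With 0 reads in the knockout-labelled IP, the last 3 values rest on the read that the score adds. They also rest on regions that are nearly all those of the wild-type library. Elsewhere in Khsrp the knockout-labelled library had an enriched region (10 reads against 0, log2 4.26).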

How the data were processed

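The 2 AGO2 IP libraries were used as deposited. Per the labels' protocols, the authors trimmed reads with Cutadapt 1.15, dropped those on repeats, mapped with STAR 2.6.0c to mm10, collapsed duplicates with UMI tools (version given as 5.2) and called clusters per IP with CLIPper 1.4. Each deposited region carries the authors' -log10 p-value (at most 400) and the authors' log2 of IP over size-matched input. How the authors' deposited table of wild-type over knockout-labelled IP was made is not given in the sources used here. Its regions are nearly those of the wild-type library.

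Reads were recovered from the scores with Python 3.11.15, NumPy 2.4.6, pandas 2.3.3 and SciPy 1.17.1. The log2 was the log2 depth ratio plus that of a whole-number ratio in 99.99% of regions of each table. The -log10 p, met within 1%, gave the multiple. Where it did not, wild-type counts were the smallest that fitted the scores over input and between the IPs. Knockout-labelled counts at the ceiling took the multiple nearest the reads of the comparison between the IPs. The denominator was the reads plus 1 in 85 of 89 regions that allowed the check, and numerators were equal in 42473 of 42530 regions found in both wild-type tables.

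Limits were a -log10 p of 3 and a log2 of 3 over input or 1 between IPs. Each gene's value came from the region with most bases of the 5p arm. With 1 library per genotype there was no test across libraries. Named were all 9 let-7 genes, their neighbours, the 5 miRNA genes closest in pattern, and up to 6 targets and regulators per library by -log10 p among those past the limits, plus the sites shown, which were chosen after their values were seen. The members and lists were chosen with earlier results of these data known.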

Additional observations from a re-analysis of the deposited data

How the results depend on the processing

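Of 44 alternative values of 11 results, 33 kept their direction and stayed close to the value reported. The counts of let-7 genes enriched over input, 9 and 8, were the same under limits of 5 and 4. Both stricter rules of overlap with the gene could change no value, because every let-7 region lay wholly inside its gene. Their unchanged values are among the 33 and show no stability. The counts of 9 and 8 were also the same with a denominator of at least 3, a setting chosen after seeing the data. There Mirlet7a-1 in the knockout-labelled library, at 3.35, was the let-7 gene nearest the limit of 3, and a denominator of 3 reads plus 1 was not tried. With the denominator of at least 3, the median log2 over input moved to 8.72 in wild type, against 6.73 in the knockout-labelled library, by construction. The median log2 between IPs of 1.45 became 1.14 when centred on regions outside miRNA genes with at least 20 reads, -0.10 minus that of all miRNA genes and -1.33 minus that of all regions. The 7 genes higher in wild type became 1 under limits of 5 and 2, 1 minus the median of all miRNA genes and 0 minus that of all regions. Targets with an enriched seed match fell from 7 to 2 in wild type with the match of 8 bases, and from 3 to 1 in the knockout-labelled library with that match or with limits of 5 and 4. Taking the arm by the midpoint or merging abutting regions left 65.2% to 86.7% of regions on the 5p arm. No paired analysis was possible because each genotype has 1 IP. Depth limits Mirlet7a-1, Mirlet7c-2 and Mirlet7f-2, with under 30 reads each.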
